A study of Mus musculus with 48 samples.

Results

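The transcripts of 5 peroxiredoxins (Prdx1, Prdx2, Prdx3, Prdx5 and Prdx6) and of sulfiredoxin (Srxn1) were followed in lung RNA from 48 mice. These 6 genes were taken by symbol from the 47561 genes of the deposited expression table. All 6 passed the filter on low values in every comparison, which asked for 3 or more of the fitted mice to reach an FPKM of 1. FPKM counts sequenced fragments relative to the length of the transcript and the size of the library, so that levels of different genes can be set side by side. The mice were adults, 6 to 8 weeks of age, of the inbred strains C3H/hen (C3H) and C57Bl/6 (C57B), and the groups are written C3HM, C3HF, C57BM and C57BF for males and females. Each mouse was given either saline or aurothioglucose (ATG, 25 mg/kg), a gold compound that inhibits thioredoxin reductase, as 1 intraperitoneal injection. It was then kept for 96 h in room air or in hyperoxia, with oxygen above 95%. Each of the 16 combinations of strain, sex, injection and air held 3 mice, each a separate animal with 1 library, so that 6 mice shared a strain, an injection and an air. The design text of the series names ATG for every mouse, and the saline groups rest on the sample labels. That text also names the J substrain of C57B where the methods name the N substrain.

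Peroxiredoxins remove hydrogen peroxide and organic hydroperoxides with a reactive cysteine that is oxidised in each cycle and must be reduced again. Prdx1 and Prdx2 act mainly in the cytosol and Prdx3 in mitochondria, and all of these are reduced by thioredoxin, which thioredoxin reductase keeps reduced at the expense of NADPH. Prdx5 is found in mitochondria, peroxisomes and the cytosol and is also reduced by thioredoxin. Prdx6 is reduced by glutathione with the help of the glutathione transferase Gstp1, has a phospholipase activity, and takes part in the turnover of lung surfactant lipids. At high peroxide the reactive cysteine of Prdx1, Prdx2 and Prdx3 is oxidised further to a sulfinic acid, and sulfiredoxin is the enzyme that reverses this step. Srxn1 and Prdx1 are known targets of the transcription factor Nrf2, which binds antioxidant response elements.

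In mm10 (GRCm38), the assembly used by the authors, GENCODE M21 places Srxn1 at chr2:152105516-152111376 and Prdx1 at chr4:116685544-116700822, both on the plus strand. Prdx2 lies at chr8:84969587-84974834 on the plus strand. On the minus strand are Prdx3 at chr19:60864051-60874556, Prdx5 at chr19:6906697-6910106 and Prdx6 at chr1:161240112-161251219. RefSeq promoter windows of 300 bases (GRCm38.p6), from 250 bases before to 50 bases after the annotated start, were found for 5 of the 6 genes, without Prdx6. They were searched on both strands for TGACNNNGC, the core of the antioxidant response element, and for TGANTCA, the site of AP-1, which can overlap the former. The 3 promoters below are shown because Srxn1 had the largest rise in hyperoxia, Prdx2 was the member that fell, and Prdx1 differed in its rise between alternatives. Each is printed 5′ to 3′ on the strand of the gene, from 250 bases before the RefSeq start to the base before the first annotated transcript, with the matches in capitals. The windows are chr2:152105274-152105515 for Srxn1, chr4:116685349-116685543 for Prdx1 and chr8:84969372-84969586 for Prdx2, all on the plus strand.
Srxn1: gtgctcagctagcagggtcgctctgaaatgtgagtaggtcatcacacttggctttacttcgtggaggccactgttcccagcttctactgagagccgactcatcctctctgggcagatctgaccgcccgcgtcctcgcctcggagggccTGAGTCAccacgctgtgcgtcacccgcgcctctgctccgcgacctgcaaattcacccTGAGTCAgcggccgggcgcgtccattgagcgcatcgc
Prdx1: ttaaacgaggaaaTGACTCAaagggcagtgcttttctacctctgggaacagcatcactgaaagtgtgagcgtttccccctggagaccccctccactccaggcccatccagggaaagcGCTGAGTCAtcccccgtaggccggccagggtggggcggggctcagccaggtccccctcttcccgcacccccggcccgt
Prdx2: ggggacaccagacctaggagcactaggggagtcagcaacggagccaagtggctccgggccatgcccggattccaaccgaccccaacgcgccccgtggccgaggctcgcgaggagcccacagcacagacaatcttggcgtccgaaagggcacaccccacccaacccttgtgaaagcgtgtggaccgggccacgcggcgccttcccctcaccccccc
The Srxn1 window held 2 matches to TGANTCA, 102 and 45 bases before the start. Its 1 match to TGACNNNGC lay 28 bases after the start, beyond the bases printed. The Prdx1 window held 2 matches to TGANTCA, 237 and 131 bases before the start, and the second overlapped a match to TGACNNNGC on the minus strand that began 133 bases before the start. Neither string occurred in the windows of Prdx2, Prdx3 and Prdx5. Of 32851 RefSeq promoter windows of the same length, 12.4% held TGACNNNGC and 7.81% held TGANTCA, so that a match is a description of these letters and not evidence of binding.

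Some of the libraries stood apart. The FPKM summed over genes lay between 510933 and 748290, and the absolute depth is unknown. Scgb1a1, the transcript of the main secretory protein of club cells, made up 10.4% to 30.2% of this sum in room air and 1.20% to 7.17% in hyperoxia, and since FPKM is relative to the whole library, each comparison was also made under 2 other scalings. The labelled tissue was checked against markers of alveolar type 2, alveolar type 1, club, ciliated and endothelial cells, and every marker of these lists was detected. The C3HM saline room air mice 1 and 3 differed from mouse 2 of that group, with Prdx2 at 274 and 236 FPKM against 145 FPKM and Prdx6 at 573 and 652 FPKM against 848 FPKM. Every result that uses these mice was therefore also computed without them, as an alternative chosen after the data were seen. They were picked by their own Prdx2 and Prdx6 values, so a smaller change of Prdx2 or Prdx6 without them is partly built in. Mouse 2 is then the only mouse of its group, so these fits are described by log2 values.

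The members differed in level by more than an order of magnitude, and Prdx6 and then Prdx1 were the highest in nearly all lungs (levels in FPKM, per length). Prdx6 was the highest in 48 of 48 mice, with a lowest, median and highest FPKM of 573, 1043 and 1505. Prdx1 followed, with 182, 390.1 and 544 FPKM, and lay above Prdx2 in 47 of 48 mice, the exception being C3HM saline room air mouse 1. Prdx5 (86.0, 124 and 216 FPKM) and Prdx2 (74.2, 119 and 274 FPKM) were close, and their spreads overlapped. Prdx3 had 29.5, 45.6 and 79.1 FPKM and was below Prdx5 in 48 of 48 mice. Srxn1 had 8.67, 24.6 and 109 FPKM. The order changed with air at the neighbouring pairs Prdx2 and Prdx5, and Prdx3 and Srxn1. Prdx2 was above Prdx5 in 21 of 24 mice in room air and in 2 of 24 mice in hyperoxia. Srxn1 was below Prdx3 in 24 of 24 mice in room air. In hyperoxia it was above Prdx3 in 10 of 12 C57B mice and in 2 of 12 C3H mice.

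**Figure D1:**
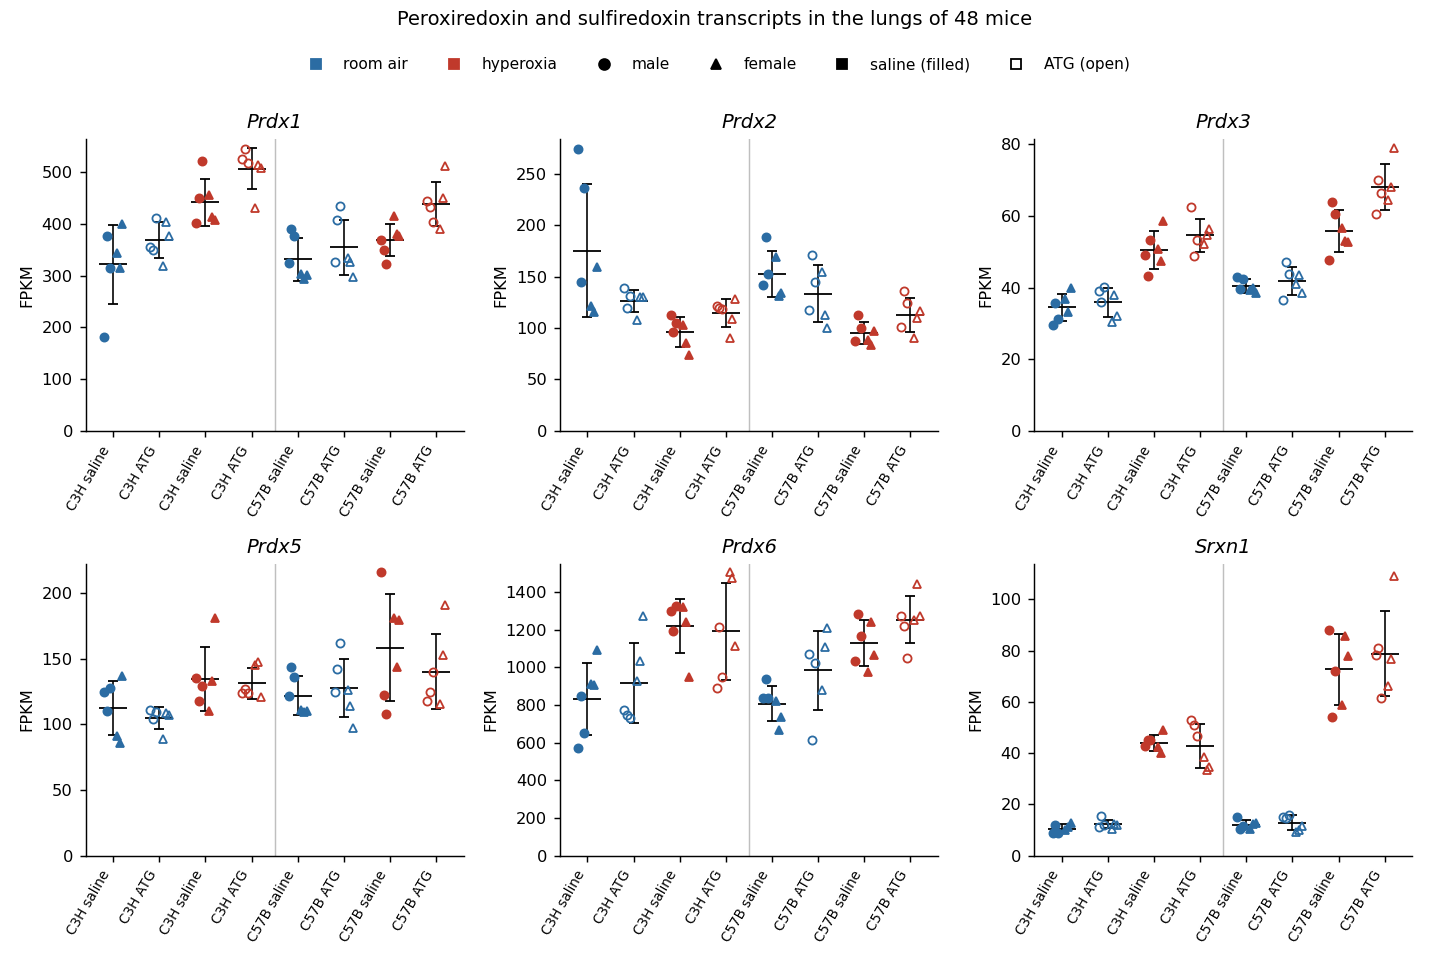
FPKM of each member in each of the 48 mice (vertical axes, FPKM from 0), with 6 mice in each combination of strain, injection and air on the horizontal axes; horizontal bars are means and error bars are SD over 6 mice. Srxn1 was at 8.67 to 16.0 FPKM in room air (blue) and at 33.2 to 109 FPKM in hyperoxia (red), whereas Prdx2 was lower in hyperoxia than in room air in saline mice.

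Other rows of the family were low or empty. Prdx4, the peroxiredoxin of the endoplasmic reticulum, was listed at 0 in all mice, as were all 2609 genes of chromosome X in the table, so its level cannot be given. Prdx2-rs3 was also listed at 0 throughout. Prdx6b had a median of 2.45 FPKM and Prdx6-ps2 a median of 0.601 FPKM. Of the 30-base sequences of the transcripts of each member, 15.7% were shared with other genes for Prdx1, 7.62% for Prdx2, 2.63% for Prdx6, 0.105% for Srxn1 and 0% for Prdx3 and Prdx5. The main partners were Gm21399 and Gm7204 for Prdx1 (median 42.2 and 30.0 FPKM) and Tdpx-ps1 for Prdx2 (median 37.5 FPKM), and the levels of Prdx1 and Prdx2 are uncertain to the extent that reads were divided with these copies. The 3′ end of Prdx2 overlaps Junb on the opposite strand (chr8:84974484-84974834) and its 5′ end overlaps Rnaseh2a. Junb had a median of 71.0 FPKM in room air and 213 FPKM in hyperoxia, the opposite direction to Prdx2. The start of Prdx5 overlaps Trmt112, with medians of 18.6 and 22.7 FPKM. The labels name a directional library and the methods a kit that does not mark strand, so it is unknown whether such reads were kept apart.

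The share of the variation among the 48 mice that went with each label was described by the sums of squares of log2(FPKM + 1), without a test. Air accounted for 90.3% in Srxn1, 70.2% in Prdx3, 44.4% in Prdx6, 40.4% in Prdx2, 38.2% in Prdx1 and 22.7% in Prdx5. Strain accounted for at most 11.0%, in Prdx3. Injection accounted for 11.3% in Prdx1 and for at most 3.40% in each other member. Sex accounted for 11.0% in Prdx2, 6.73% in Prdx6 and at most 0.260% in each other member. The interaction of air and injection held 14.5% in Prdx2 and at most 1.27% in each other member. That of air and strain held at most 4.32%, in Prdx1. All other interactions together held from 1.38% in Srxn1 to 18.2% in Prdx6. The spread among the 3 mice of a group was 2.09% of the total in Srxn1 and 48.3% in Prdx5, which makes Srxn1 the member that followed the labels most closely and Prdx5 the least. Over the 8 combinations of strain, injection and air, the coefficient of variation among 6 mice had a median of 9.91% in Prdx3, 9.97% in Prdx1, 14.6% in Prdx2, 16.6% in Prdx6, 17.2% in Srxn1 and 17.9% in Prdx5.

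At baseline, in the 12 saline mice in room air, 0 of the 6 members differed between strains, 0 between sexes and 0 in the difference of the sex effect between strains (limma on log2(FPKM + 1), Benjamini-Hochberg adjusted p under 0.05). The same fit called 11.8% of all genes between the strains, 0.669% between the sexes and 0% for the interaction. At an unadjusted p under 0.05, strain and the interaction each had 1 member and sex had 2. Prdx3 had 29.5, 34.5 and 40.0 FPKM (lowest, median, highest) in C3H and 38.4, 39.7 and 43.0 FPKM in C57B, and the groups overlapped. Its log2 difference, C3H minus C57B, was -0.23 ± 0.08 (SE, adjusted p = 0.099). Prdx6 had the largest interaction, which is the sex effect (male minus female) of C3H less the sex effect of C57B, at -0.74 ± 0.22 (adjusted p = 0.203). It was at 573 to 848 FPKM in C3HM and at 904 to 1095 FPKM in C3HF, groups without overlap, while C57BM had 837 to 936 FPKM and C57BF had 665 to 820 FPKM. These counts of 0 depended on mouse C3HM 2. Without it, the outlying mice 1 and 3 are the only mice of their group. Prdx3 then passed for strain (limma adjusted p = 0.0223), Prdx2 for sex (0.0126), and Prdx2 (0.0458) and Prdx6 (0.00922) for the interaction. The shares of all genes given above are those of the fit with every mouse. Without mice 1 and 3 their group held 1 mouse. The log2 values were then -0.16 for Prdx3 by strain and 0.15 for Prdx2 by sex. For the interaction they were -0.01 for Prdx2 and -0.42 for Prdx6. In the fit of all 48 mice, Prdx3 passed for strain (0.0419) and Prdx2 for sex (0.0336).

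Hyperoxia moved all members in saline mice. Averaged over strains and sexes, 5 of the 6 members rose and 1, Prdx2, fell, where 31.8% of all genes rose and 28.3% fell. The median log2 change was 0.41 over the members and 0.01 over all genes. Srxn1 rose most, by 2.23 ± 0.09 on the log2 scale (SE, 24 mice, limma adjusted p = 1.29e-13), and only 0.613% of the genes tested had a larger rise. Prdx6 rose by 0.53 ± 0.08 (adjusted p = 6.32e-06) and Prdx3 by 0.49 ± 0.06 (7.48e-07). Prdx1 rose by 0.32 ± 0.09 (0.00415) and Prdx5 by 0.30 ± 0.11 (0.0207). Prdx2 changed by -0.74 ± 0.10 (1.96e-06). The calls of Prdx1 and Prdx5 were lost under quantile normalization (log2 changes of 0.10 and 0.09, adjusted p = 0.363 and 0.403), and that of Prdx5 also under median ratio scaling (0.23, adjusted p = 0.124). The other 4 calls remained under both.

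Sulfiredoxin showed the widest separation. In C3H saline mice Srxn1 had a lowest, median and highest FPKM of 8.67, 10.6 and 12.7 in room air and of 39.9, 44.0 and 48.9 in hyperoxia. The C57B saline mice had 10.3, 12.0 and 15.0 FPKM in room air and 54.2, 74.9 and 88.0 FPKM in hyperoxia. All 6 mice in hyperoxia were above all 6 mice in room air in each strain, and all C57B mice in hyperoxia were above all C3H mice in hyperoxia. The mean FPKM was 4.18-fold higher in hyperoxia in C3H and 6.04-fold higher in C57B. On the log2 scale the rise was 1.97 ± 0.12 in C3H (limma adjusted p = 7.97e-10) and 2.49 ± 0.12 in C57B (7.21e-12). The difference of the rises, C3H minus C57B, was -0.51 ± 0.18 with a 95% interval of -0.88 to -0.14 and an adjusted p of 0.0638, so that it missed the threshold, in a comparison where 11.5% of all genes passed. It passed under quantile normalization (-0.58, 0.0228) and median ratio scaling (-0.69, 0.0212), and in the fit of all 48 mice (0.0281). It also passed without any 1 of the mice 13, 20, 33 and 43 (adjusted p from 0.0269 to 0.0478). Leaving out any other single mouse did not bring it past the threshold. Without mice 1 and 3 the difference was -0.64. The median difference of all genes in this comparison was 0.15 with FPKM as deposited, -0.01 after quantile normalization and 0.01 after median ratio scaling. Of the cell type markers, all 3 of club cells passed for this difference (median 2.06, with the smaller fall in C3H), and 2 of 3 under each other scaling. Also higher were 3 of 4 markers of B cells (median 1.14), 2 of 4 of T cells, and 1 each of ciliated, alveolar type 2 and endothelial cells. Of 4 alveolar macrophage markers 1 was higher and 1 lower, and 0 passed of alveolar type 1 cells, neutrophils, red cells and cardiac muscle. Their part in the value of Srxn1 was not tested.

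Within hyperoxia, the level of Srxn1 in saline mice was lower in C3H than in C57B by 0.69 on the log2 scale (log2 difference of -0.69 ± 0.12, limma adjusted p = 0.000358). It was the only 1 of the 6 members called in this comparison, in which 27.2% of all genes were called. Markers of club cells (3 of 3, median 1.75), alveolar type 1 cells (3 of 5) and endothelial cells (3 of 5) were higher in C3H in the same comparison, as was 1 each of alveolar type 2 cells, T cells and cardiac muscle. Of alveolar macrophages 2 of 4 were lower and 1 higher, and of red cells 1 was higher and 1 lower. Their part in the level of Srxn1 was not tested. Prdx1 was higher in C3H by 0.26, with a limma adjusted p of 0.144, and of 0.023 without mouse 1. Mice 1 and 3 were in room air, outside this contrast. Leaving them out changes the variance of the fit, and the value of 0.26 cannot move. Under median ratio scaling Prdx3 was called, lower in C3H by a log2 difference of -0.21 (0.0312). The ratio of Srxn1 to its substrates can be read from FPKM. For each 100 FPKM of Prdx1, Prdx2 and Prdx3 together there were 1.54 to 2.41 FPKM of Srxn1 in C3H saline room air mice and 1.68 to 2.94 FPKM in C57B. In saline hyperoxia the range was 6.63 to 9.03 in C3H and 10.3 to 17.5 in C57B, and these ranges do not overlap. This ratio is given as a description of transcripts and was not tested.

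**Figure D2:**
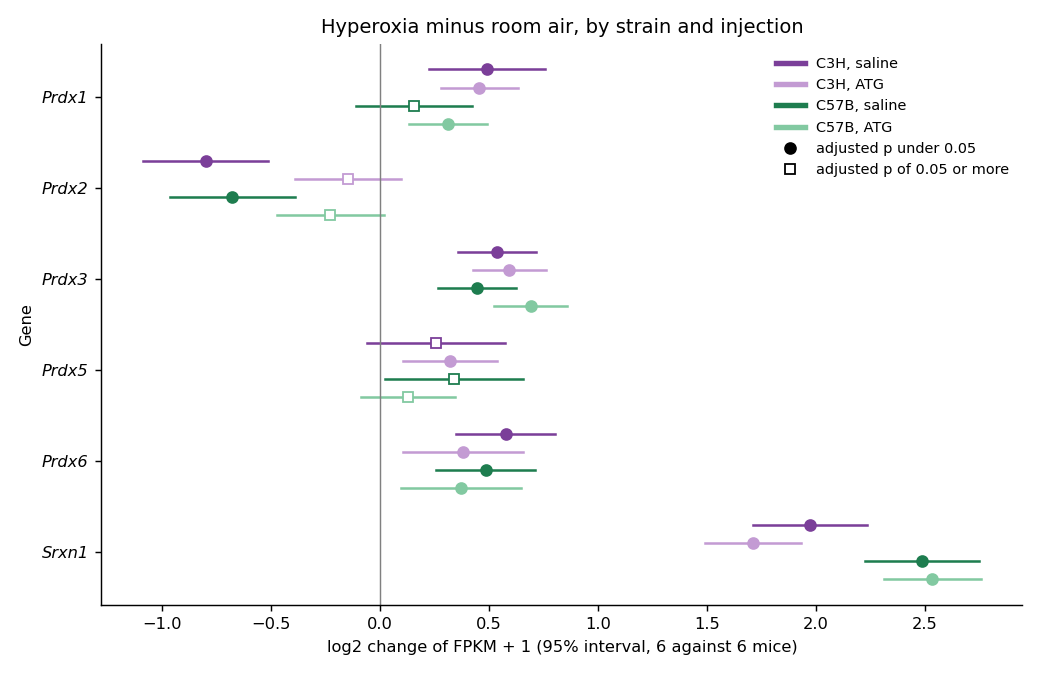
Log2 change of FPKM + 1 from room air to hyperoxia (horizontal axis) for each member (vertical axis), in each strain and injection, with 95% intervals; each point compares 6 with 6 mice, circles passed an adjusted p of 0.05 and open squares did not. The intervals come from fits of both strains together. Srxn1 lies to the right of all other members, at 1.71 to 2.53. Prdx2 is the only member to the left of 0, at -0.80 and -0.68 in saline mice and at -0.14 and -0.23 in ATG mice.

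Among the peroxiredoxins reduced by thioredoxin, the mitochondrial Prdx3 rose in both strains and cytosolic Prdx1 was called in C3H. Prdx3 in C3H saline mice had 29.5, 34.5 and 40.0 FPKM in room air and 43.3, 49.9 and 58.7 FPKM in hyperoxia, without overlap, a log2 change of 0.54 ± 0.09 (limma adjusted p = 6.26e-05). In C57B it went from 38.4, 39.7 and 43.0 FPKM to 47.6, 54.8 and 63.9 FPKM, also without overlap, a change of 0.45 ± 0.09 (0.000174). Prdx1 in C3H had 182, 329 and 399.9 FPKM in room air and 402, 431 and 521 FPKM in hyperoxia, and the ranges did not overlap. Its log2 change in C3H was 0.49 ± 0.13 (0.00478), and 0.27 without mice 1 and 3. In C57B Prdx1 had 294, 314 and 391 FPKM in room air and 322, 373 and 415 FPKM in hyperoxia, with overlap, a change of 0.16 ± 0.13 (0.308) whose sign turned under quantile normalization (-0.11). The C3H call of Prdx1 was lost there too (0.31, adjusted p = 0.0624). The difference of the Prdx1 changes between strains was 0.33 ± 0.18, with a 95% interval of -0.04 to 0.71 (adjusted p = 0.231), so that no difference between strains was shown.

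Prdx2, the cytosolic peroxiredoxin that is abundant in red cells, was lower in hyperoxia in both strains. In C3H saline mice it had 116, 152 and 274 FPKM in room air and 74.2, 99.8 and 113 FPKM in hyperoxia, without overlap. In C57B it had 131, 147 and 189 FPKM in room air and 83.3, 93.0 and 113 FPKM in hyperoxia, without overlap. The log2 changes were -0.80 ± 0.14 in C3H (limma adjusted p = 0.000149) and -0.68 ± 0.14 in C57B (0.000332). Without mice 1 and 3, which had the highest Prdx2 of all 48 lungs, the C3H change was -0.53. The list of 7 red cell markers, 1 of which (Alas2) was listed at 0 in all mice, moved with air as well. Its summed FPKM ranged from 3342 to 67963 in room air and from 305 to 2004 in hyperoxia, without overlap, and 6 of the 6 markers tested fell in saline mice. In a bulk sample, fewer cells of a type and less RNA per cell cannot be told apart. Mice 1 and 3 had red cell sums of 15882 and 67963 FPKM and mouse 2 of their group 15372 FPKM. The part of red cells in the fall of Prdx2 was not tested.

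**Figure D3:**
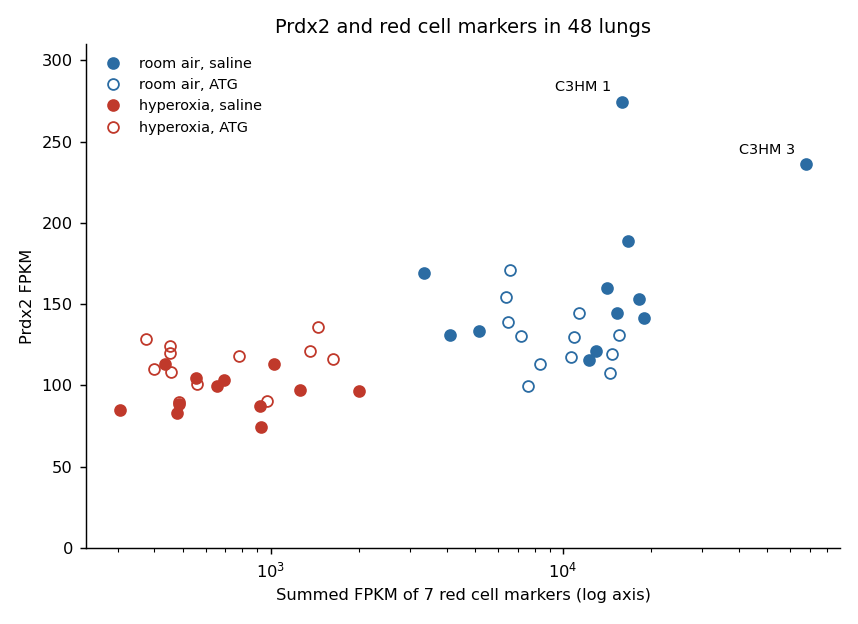
Prdx2 FPKM (vertical axis) against the summed FPKM of 7 red cell markers (horizontal axis, log scale) in 48 mice; colours mark air, filled points saline and open points ATG. The red cell sums of the 2 airs do not overlap (305 to 2004 in hyperoxia, 3342 to 67963 in room air), and mice 1 and 3 of the C3HM saline room air group lie above all others in Prdx2.

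Of the remaining members, Prdx6 was called as higher in hyperoxia in both strains and Prdx5 in neither. Prdx6 in C3H saline mice had 573, 876 and 1095 FPKM in room air and 947, 1270.2 and 1324 FPKM in hyperoxia, and 5 of the 6 mice in hyperoxia were above all mice in room air. In C57B it had 665, 828 and 936 FPKM in room air and 976, 1117 and 1285 FPKM in hyperoxia, without overlap. The log2 changes were 0.58 ± 0.11 (limma adjusted p = 0.000347) and 0.49 ± 0.11 (0.000825). Prdx5 had 86.0, 117 and 137 FPKM in room air and 110.3, 131 and 181 FPKM in hyperoxia in C3H, and 109, 116 and 144 FPKM against 108, 161 and 216 FPKM in C57B. Its groups overlapped in both strains, and its changes of 0.26 ± 0.15 in C3H (adjusted p = 0.193) and 0.34 ± 0.15 in C57B (0.0614) missed the threshold. The C57B change of Prdx5 passed without any 1 of the C57B mice 20, 21 and 44 (limma adjusted p from 0.0188 to 0.0454). It also passed in the fit of all 48 mice (0.0261) and without the C3H mouse 27 or 33 (0.0442 and 0.0468). Its value stayed at 0.34 in those fits, since C3H and ATG mice are outside this contrast. Leaving out any other single mouse did not bring the C57B change past the threshold. Over saline and ATG mice together, the summed markers of alveolar type 2 cells, which make surfactant, were at 24428 to 49358 FPKM in room air. In hyperoxia they were at 5754 to 21840 FPKM. Of these markers 5 of 6 fell in saline mice and 1, Sftpb, rose. Those of club cells, 3 of 3 of which fell in saline mice, ranged over both injections from 58111 to 230687 FPKM in room air. In hyperoxia they ranged from 6935 to 43458 FPKM. The neutrophil markers (5 of 5 rose in saline mice) spread over both injections from 59.9 to 3620 FPKM in room air and from 157 to 6265 FPKM in hyperoxia. In saline mice they spread from 135 to 312 FPKM in room air and from 176 to 6265 FPKM in hyperoxia in C3H. In C57B saline mice they spread from 180 to 774 FPKM and from 161 to 4853 FPKM. Markers of alveolar macrophages had medians of 325 and 656 FPKM over both injections, with 3 of 4 higher and 1 lower in saline mice. Of the other markers, 4 of 4 of B cells, 4 of 4 of T cells, 5 of 5 of cardiac muscle, 3 of 4 of ciliated cells and 3 of 5 of alveolar type 1 cells fell, and of the 5 of endothelial cells 1 rose and 2 fell. Whether these shifts of cell types had a part in the changes of Prdx5 and Prdx6 was not tested.

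By strain, 5 of 6 members were called in C3H saline mice, 4 higher and 1 lower, against a background of 25.3% of genes higher and 12.5% lower. In C57B 4 of 6 were called, 3 higher and 1 lower, against 25.5% higher and 30% lower. In C3H the share of higher genes among those called was 66.9% with FPKM as deposited, 51.3% after quantile normalization and 47.7% after median ratio scaling. The median log2 change of all genes in C3H moved from 0.10 to 0.00 and -0.02 with these scalings, and the changes of all 6 members were lower under both scalings. The difference of the hyperoxia effect between the strains was called in 0 of the 6 members (background 11.5%). For Srxn1 that call depended on the setting, as stated above. The difference between the sexes was called in 0 of the 6 (background 0.0368%), with 0 members also at an unadjusted p under 0.05 for sex.

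The enzymes that keep peroxiredoxins working moved unevenly. In saline mice, the list of 7 genes of the thioredoxin cycle had 4 genes that rose, 2 that fell and 1 that was not called, with a median log2 change of 0.15 against 0.01 for all genes. Under quantile normalization 1 rose, 2 fell and 4 were not called (median -0.01), and under median ratio scaling 3 rose and 2 fell (0.08), so that the direction of the list depended on the scaling. The largest rise was that of Txnrd1, the cytosolic thioredoxin reductase, by 2.11 ± 0.10 (limma adjusted p = 1.97e-12). Txn2, the thioredoxin of mitochondria that reduces Prdx3, rose by 0.34 ± 0.08 (0.000739), and Txn1, that of the cytosol, by 0.15 ± 0.06 (0.0421). Under quantile normalization neither was called (0.17 and -0.06, adjusted p = 0.0661 and 0.359), and under median ratio scaling Txn1 was not (0.08, 0.396). Txnip, which binds and inhibits thioredoxin, changed by -0.89 ± 0.13 (1.03e-05). Of 7 other peroxide-removing enzymes, 1 rose, 3 fell and 3 were not called, under each scaling. Gpx2, a glutathione peroxidase of epithelia, rose by 2.22 ± 0.24 (1.42e-07), and catalase (Cat), the peroxisomal enzyme, changed by -0.94 ± 0.11 (4.21e-07). Of the 4 sestrins and Gstp partners tested, 2 rose and 2 fell. Gstp1, which helps to reduce Prdx6, rose by 0.56 ± 0.07 (5.25e-07). Sesn2, a stress-induced sestrin, rose by 1.83 ± 0.09 (3.38e-12), while Sesn1 and Sesn3 changed by -0.86 and -0.66.

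The 13 Nrf2 targets of the list all rose in saline mice, by 0.35 (Tkt) to 2.62 (Gclc, the catalytic subunit of the enzyme that starts glutathione synthesis), with a median of 1.32, and all 13 rose under both other scalings too (medians of 1.45 and 1.24). The list includes Txnrd1, which the thioredoxin list holds as well. Srxn1, at 2.23, lay within this range and Prdx1, at 0.32, below it. In the comparison of the hyperoxia effect between strains, 5 of the 13 were called, all with the smaller rise in C3H, and the median difference of all 13 was -0.50 against 0.15 for all genes. Under each other scaling 6 of the 13 were called, Nqo1 being the one added, again all with the smaller rise in C3H. With FPKM as deposited, the largest of the called differences was that of Hmox1, heme oxygenase, at -1.42 ± 0.34 (limma adjusted p = 0.0114), followed by Slc7a11, a cystine transporter, at -1.13 ± 0.30 (0.0208) and Gclm at -1.05 ± 0.12 (3.53e-05). Under quantile normalization that of Fth1, the ferritin heavy chain, was larger (-1.61, 0.0416) than that of Hmox1 (-1.43). The value of Srxn1 in the same comparison was -0.51, with the adjusted p of 0.0638 given for it.

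**Figure D4:**
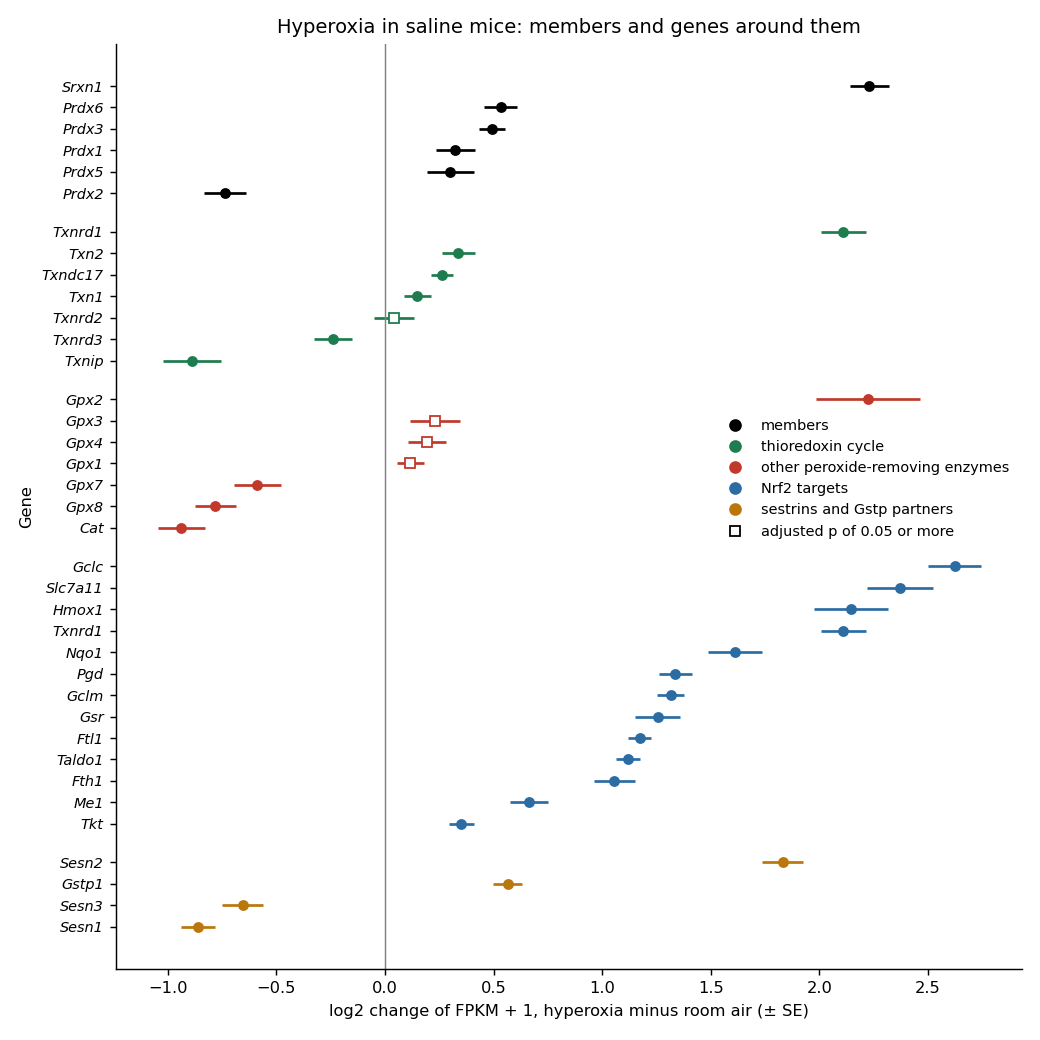
Log2 change of FPKM + 1 from room air to hyperoxia in saline mice (horizontal axis, ± SE, 24 mice) for the 6 members and for the genes of 4 lists (vertical axis); filled circles passed an adjusted p of 0.05. Srxn1 (2.23) lies among the highest Nrf2 targets, near Txnrd1 (2.11), and Prdx2 (-0.74) lies near Gpx8 and Cat.

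In room air, no member passed the test for ATG. There 0 of the 6 members were called between ATG and saline mice (background 0.0185% of genes), with 2 at an unadjusted p under 0.05. The counts were also 0 in C3H mice (background 0.00616%), in C57B mice (0.0555%) and for the difference of the ATG effect between strains (0%, with 743 genes at an unadjusted p under 0.05). Prdx2 had the largest value, a log2 change of -0.30 ± 0.10 (limma adjusted p = 0.631), and -0.17 without mice 1 and 3. In C3H it had 116, 152 and 274 FPKM with saline and 108, 130.1 and 139 FPKM with ATG, and the groups overlapped. The C3H change of Prdx2 passed only when mouse 2 was left out (-0.53, adjusted p = 0.0285), which leaves the outlying mice 1 and 3 as the only males of their group. Srxn1 had 8.67 to 15.0 FPKM with saline and 9.30 to 16.0 FPKM with ATG over both strains, a log2 change of 0.13 with a 95% interval of -0.02 to 0.29.

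In hyperoxia, ATG mice had somewhat more Prdx1. The C3H mice had 402, 431 and 521 FPKM with saline and 430.0, 516 and 544 FPKM with ATG, and the C57B mice 322, 373 and 415 FPKM with saline and 389.6, 439 and 512 FPKM with ATG. The groups overlapped in both strains. The log2 change was 0.22 ± 0.05 (limma adjusted p = 0.0243, 24 mice), and Prdx1 was 1 of the 6 members called where 5.47% of all genes were called. This call was lost under quantile normalization (0.18, adjusted p = 0.0549), median ratio scaling (0.17, 0.154) and the fit of all 48 mice (0.0785), a fit in which Prdx3 was called (0.0326). Markers of alveolar macrophages were lower with ATG in 3 of 4 (median -0.72) and those of endothelial cells in 2 of 5, and 1 of 5 of alveolar type 1 cells was higher. Their part in the value of Prdx1 was not tested. Prdx2 (0.25 ± 0.07, adjusted p = 0.0512) and Prdx3 (0.20 ± 0.06, 0.0591) were next to the threshold. Leaving out 1 mouse brought Prdx2 past it without mouse 20, 22, 31, 34 or 46 (0.028 to 0.0417) and Prdx3 without mouse 9, 11, 20, 22 or 33 (0.0383 to 0.0484). Leaving out any other single mouse did not. Within single strains 0 members were called, in C3H (background 2.65%) as in C57B (0.864%). The difference of the ATG effect in hyperoxia between strains was called in 0 members (0.416%). In the fit of all 48 mice Prdx3 passed in C57B (0.0462). For Srxn1 the test gave no call, with a log2 difference of 0.03 and a 95% interval of -0.16 to 0.21. Of the pathway genes, Gpx3, the secreted glutathione peroxidase, was lower with ATG (-0.71, adjusted p = 0.0218) and Gpx8 (0.31, 0.032) and the Nrf2 target Taldo1 (0.18, 0.0382) were higher. The calls of Gpx8 and Taldo1 were lost under both other scalings (adjusted p from 0.0513 to 0.291).

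**Figure D5:**
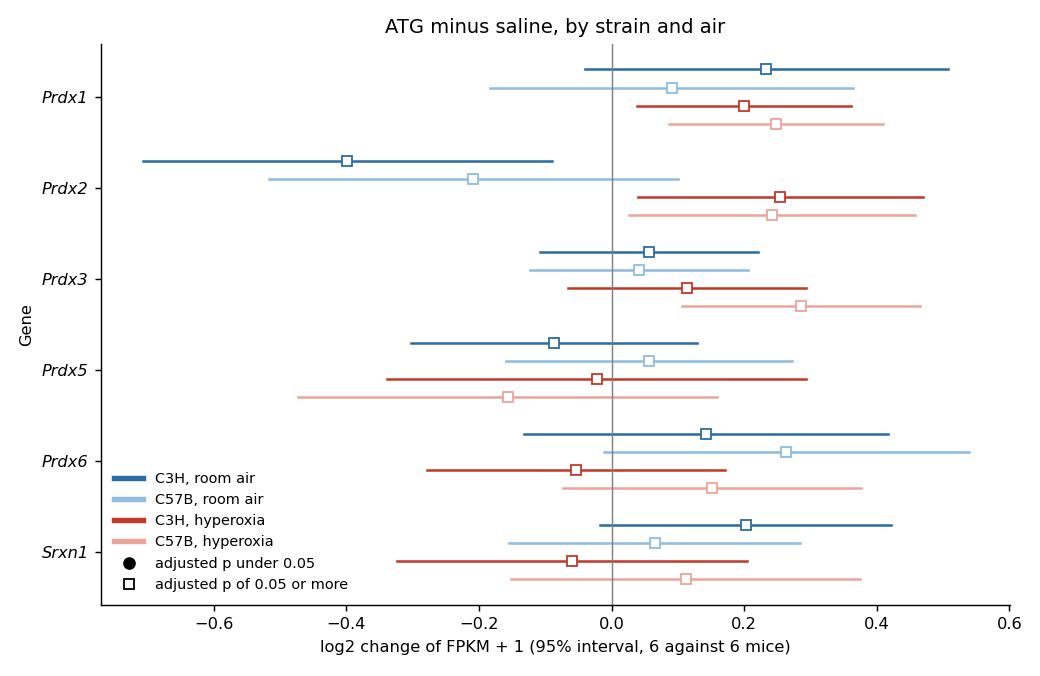
Log2 change of FPKM + 1 from saline to ATG (horizontal axis, 95% intervals, 6 against 6 mice) for each member (vertical axis) in each strain and air; no point passed an adjusted p of 0.05 within a strain. The intervals come from fits of both strains together. Prdx2 lies to the left of 0 in room air (-0.40 and -0.21) and to the right of 0 in hyperoxia (0.25 and 0.24).

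For Prdx2 the effect of ATG differed between the airs. The log2 effect of ATG in hyperoxia minus that in room air was 0.55 ± 0.13 (limma on all 48 mice, adjusted p = 0.0181), and Prdx2 was 1 of 6 members called against a background of 2.77%. In room air the range over both strains was 116 to 274 FPKM with saline and 99.8 to 171 FPKM with ATG. In hyperoxia it was 74.2 to 113 FPKM with saline and 89.9 to 136 FPKM with ATG, and each pair of ranges overlaps. Without mice 1 and 3 the difference was smaller, at 0.42, in a fit that left 1 mouse in their group. The red cell sums of the room air mice had medians of 14763 FPKM with saline and 12708 FPKM with ATG in C3H and of 10905 and 7999 FPKM in C57B, and 0 of 6 red cell markers were called for the difference of the ATG effect between airs. Markers of alveolar macrophages (3 of 4, median -1.44) and of endothelial cells (2 of 5, median -0.41) were called as lower for it, and none of the other lists of cell types had a marker called. The part of these cells in the value of Prdx2 was not tested.

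The hyperoxia comparison was repeated in the 24 ATG mice, a set of mice that shares no animal with the saline comparison. This was decided after the data were seen. Averaged over strains, 5 of the 6 members rose and 0 fell, where 35.8% of genes rose and 26% fell. Srxn1 rose by 2.12 ± 0.08 (limma adjusted p = 7.91e-15), Prdx3 by 0.64 ± 0.06 (5.17e-09), Prdx1 by 0.39 ± 0.06 (1.27e-05), Prdx6 by 0.38 ± 0.09 (0.00147) and Prdx5 by 0.23 ± 0.07 (0.0107). Prdx2 changed by -0.19 ± 0.08 (0.0584). Its call depended on the setting, since it passed under quantile normalization (-0.41, 4.68e-05) and median ratio scaling (-0.30, 0.00625), and without any 1 of the mice 16, 23, 28, 36, 42 and 48 (0.0245 to 0.046). Leaving out any other single mouse did not bring it past the threshold. Prdx5 lost its call, with a change of -0.02 (0.824) under quantile normalization, where the sign turned, and of 0.12 (0.208) under median ratio scaling, and Prdx6 was not called under quantile normalization (0.18, 0.136).

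In ATG C3H mice 5 of 6 members rose (background 30.4% higher, 17.5% lower), and in ATG C57B mice 4 of 6 rose (30.7% higher, 25.4% lower). In C3H the share of higher genes among those called was 63.5%, and 49.6% and 49.2% under the other scalings. Prdx3 had 30.3, 36.9 and 40.1 FPKM in room air and 48.8, 53.9 and 62.5 FPKM in hyperoxia in C3H, and 36.4, 42.2 and 47.2 FPKM against 60.5, 67.2 and 79.1 FPKM in C57B, without overlap in either strain. The rise of Prdx6 was called in C3H (0.38, adjusted p = 0.0216) and in C57B (0.37, 0.0209). It lost the call in C3H without mouse 11, 28, 34 or 35 (0.0511 to 0.063) and in C57B without mouse 17 or 40 (0.0632 to 0.0745). The groups of Prdx6 overlapped in both strains. Under quantile normalization the C3H calls of Prdx5 (0.10, adjusted p = 0.412) and Prdx6 (0.07, 0.712) and the C57B calls of Prdx1 (0.08, 0.376) and Prdx6 (0.29, 0.102) were lost. Under median ratio scaling those of Prdx5 (0.18, 0.2) and Prdx6 (0.24, 0.179) in C3H and of Prdx6 (0.30, 0.0793) in C57B were lost. Prdx2 passed as lower in hyperoxia under quantile normalization in C3H (-0.36, 0.00598) and in C57B (-0.46, 0.000673), and under median ratio scaling in C57B (-0.30, 0.0431).

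Srxn1 in ATG mice repeated the separation of the strains. It had 10.6, 12.0 and 15.3 FPKM in room air and 33.2, 42.5 and 52.97 FPKM in hyperoxia in C3H, and 9.30, 13.2 and 16.0 FPKM against 61.6, 77.6 and 109 FPKM in C57B. All C57B mice in hyperoxia were again above all C3H mice in hyperoxia. The rises were 1.71 ± 0.11 and 2.53 ± 0.11 on the log2 scale, and their difference, C3H minus C57B, was -0.82 ± 0.15 with a 95% interval of -1.14 to -0.51 (limma adjusted p = 0.00134). Srxn1 was the 1 member called for this difference, where 13.3% of all genes were called. The markers of club cells (3 of 3, median 1.62) and of neutrophils (5 of 5, median 2.99) were called as higher and those of alveolar macrophages (3 of 4) as lower for the same difference. Also called were 2 of 4 markers of T cells, 2 of 6 of alveolar type 2 cells and 1 of ciliated cells as higher, 1 of endothelial cells as lower, and 1 of alveolar type 1 cells each way, and their part in the value of Srxn1 was not tested. In the level within ATG hyperoxia 2 of 6 members were called against a background of 28.3%, both lower in C3H, Srxn1 by a log2 difference of -0.86 ± 0.11 (3.89e-06) and Prdx3 by -0.31 ± 0.08 (0.00628). The saline and ATG fits give Srxn1 differences of -0.51 and -0.82, with overlapping intervals, and the difference between them was not tested. Prdx1 passed as higher in C3H within ATG hyperoxia under quantile normalization (0.25, 0.0117) and without mouse 34 or 48 (0.0431 and 0.0324). It was not called when any other single mouse was left out. For the level of Srxn1 in hyperoxia, the ATG effect in C3H minus that in C57B was -0.17 ± 0.18 (adjusted p = 0.702).

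The genes whose pattern was most like that of each member were found by Pearson's r of the mean log2(FPKM + 1) over the 16 groups, among 16994 genes. This is a description over group means that share strain, air and scaling, without a test. For Srxn1 they were Mthfd2 (r = 0.993), a mitochondrial enzyme of folate metabolism, Nars (0.993), a cytosolic tRNA synthetase, and Hspa9 (0.992), a mitochondrial chaperone. For Prdx3 they were Npm3-ps1 (0.982), Gfer (0.973) and Ttc1 (0.973). The closest genes of Prdx1 were Dpp3 (0.951), a peptidase, Gm21399 (0.937), which shares sequence with Prdx1, and Gtpbp8 (0.931). Prdx6 was most like its near copy Prdx6b (0.955), then Mrs2 (0.922) and 0610010F05Rik (0.912). Prdx2 was most like Ndufb10 (0.929), a subunit of respiratory complex I, Gm27209 (0.921) and 4931428F04Rik (0.921). Prdx5 was most like Serpina3h (0.931), Pla2g7 (0.924) and Wfdc17 (0.914). Among the members, Prdx3 and Srxn1 were the most alike (r = 0.934), and Prdx2 had a negative r with each of the others, from -0.45 with Prdx5 to -0.80 with Prdx6.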

How the data were processed

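Lung RNA was selected for polyA, sequenced as paired reads of 150 bases, mapped to mm10 with GSNAP (version 2012-07-20 in the submitters' processing notes, which also name SAMtools) and turned into FPKM with Cufflinks by the authors. The deposited table holds these FPKM values, 1 per gene and mouse, and no counts, so no count test was used and no counting error can be given. The annotation release is not given in the sources used here. Akap5 was left out, because its estimate failed in 7 mice.

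Log2(FPKM + 1) was fitted with limma 3.58.1 (R 4.3.3, lmFit on group means and eBayes with trend) over all genes that reached an FPKM of 1 in 3 or more of the fitted mice. The p-values were corrected after Benjamini and Hochberg (threshold 0.05). Fold changes on this scale understate those of low genes. Each comparison was fitted on the mice that shared its injection, its air or both, and the ATG effect by air on all 48 mice. A change within 1 strain, or a strain difference within hyperoxia, came from such a fit. Its SE and p-value therefore also drew on mice outside the contrast. Effects were averaged over the strains and sexes that were not themselves compared or held fixed. The scripts were tested on simulated data. The alternatives were a pseudocount of 0.1, weaker filters, quantile normalization, median ratio scaling, eBayes without trend, a fit of all 48 mice, and leaving out each mouse. The named genes were all members, the other rows of the family, the genes of 4 pathway lists that passed the threshold, and the 3 genes most like each member. The members and the lists, and 11 lists of cell type markers, were chosen with earlier results of these data known. Coordinates are from GENCODE M21 and promoters from RefSeq.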

Additional observations from a re-analysis of the deposited data

Results flagged for a closer look

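In 48 sets of 6 mice (6 members in 8 combinations of strain, injection and air), 4 values stood farther from the rest than Dixon's critical ratio of 0.625 allows, where chance flags about 1 set in 20. Prdx5 was low at 88.8 FPKM in the C3H ATG room air mouse 28, with the others at 104 to 111 FPKM. In the C3H saline hyperoxia mouse 33, Prdx5 was high at 181 FPKM (others 110.3 to 136 FPKM) and Prdx6 was low at 947 FPKM (others 1191 to 1324 FPKM). This mouse had the highest neutrophil marker sum (6265 FPKM) and the lowest alveolar type 2 marker sum (5754 FPKM) of the 48, and their part was not tested. Prdx1 was low at 430.0 FPKM in the C3H ATG hyperoxia mouse 34, with the others at 508 to 544 FPKM, and that mouse had the lowest alveolar macrophage marker sum of the 48 (86.4 FPKM), whose part was not tested.

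A pair of differences between groups passed the limma test of the difference itself. For Prdx2, the log2 effect of ATG in hyperoxia exceeded that in room air by 0.55 (adjusted p = 0.0181). It did so by 0.42 without mice 1 and 3, a fit that left 1 mouse in their group. For Srxn1 in ATG mice, the rise in hyperoxia differed between the strains by -0.82 (C3H minus C57B, adjusted p = 0.00134).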

How the results depend on the processing

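No paired analysis was possible because each mouse carries its own number and belongs to 1 group. Counts of called members under the alternatives other than leaving out 1 mouse were within 1.5 times the reported count in 161 of 174 cases, and single members kept direction and side of the threshold in 505 of 553 (17 lost a call, 17 gained one, 14 changed sign). With 1 mouse left out this held for 523 of 540 counts and 1679 of 1740 members (6 lost, 36 gained, 19 changed sign). Of the 33 sign changes, 1 was of a called member, Prdx5 in ATG mice (-0.018, quantile normalization). The fit of all 48 mice called 1 member for strain and 1 for sex in saline room air, 1 for the hyperoxia effect by strain and 1 for ATG in C57B hyperoxia. Quantile normalization and median ratio scaling each called 1 for the hyperoxia effect by strain and 0 for ATG in hyperoxia. Median ratio scaling called 2 for strain in saline hyperoxia and 3 for hyperoxia in ATG C3H mice. The fits without mice 1 and 3 left 1 mouse in their group, so their counts are not listed. Leaving out single mice gave 0 to 1 for strain and for sex in saline room air, 0 to 2 for strain by sex (mouse 2), 0 to 1 for the hyperoxia effect by strain (mice 13, 20, 33 and 43) and for ATG in C3H room air (mouse 2), 1 to 2 for strain in saline hyperoxia (mouse 1) and 1 to 3 for ATG in hyperoxia.

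Members whose log2 value changed sign under quantile normalization were Prdx1 for hyperoxia in C57B saline mice (-0.11), Prdx6 (-0.072) and Srxn1 (-0.0083) for ATG in hyperoxia, Prdx5 for hyperoxia in ATG C57B mice (-0.14) and Prdx6 for the hyperoxia effect by strain in ATG mice (-0.21). Under median ratio scaling they were Prdx3 and Prdx6 for the hyperoxia effect by strain (-0.092 and -0.095), Prdx6 (-0.010) and Srxn1 (-0.032) for ATG in hyperoxia and Prdx6 for the hyperoxia effect by strain in ATG mice (-0.058). Without mice 1 and 3 they were Prdx2 for strain by sex (-0.013) and Prdx2 (0.15) and Prdx6 (-0.066) for the hyperoxia effect by strain. Leaving out 1 mouse, the hyperoxia effect by strain ranged from -0.18 to 0.066 for Prdx5, and in ATG mice from -0.0070 to 0.15 for Prdx2 and from -0.064 to 0.14 for Prdx6, and ATG in hyperoxia from -0.024 to 0.067 for Srxn1. The cause of these changes was not tested. FPKM gives no depth, so counting error is unknown.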
